A study of Mus musculus with 8 samples.

Results

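The cytokine receptor genes Il9r, Il5ra, Il2rg, Il4ra, Il21r, Il7r, Csf2rb, Csf2rb2, Il3ra and Il10ra were followed in sorted B-1a cells with and without PTIP, the product of Paxip1. These 10 genes encode chains of receptors that use the common gamma chain or the common beta chain, and the ligand-binding chain of the interleukin-10 receptor. They were chosen by their family and from earlier results of the same comparison, in which Il9r was among the largest rises. Each gene was read through the probe set with its symbol that had the highest mean over all arrays. A probe set was found for 9 of the 10, of 22180 genes measured, and each of the 9 had exactly 1. Il2rg, the common gamma chain itself, was not analysed here. Because the choice used the contrast between genotypes, the differences of these genes are a description and carry no test.

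The arrays hold RNA of B-1a cells that were sorted from peritoneal lavage of 5-week-old mice. The KO group was PTIPflox/flox with a heterozygous Cre allele that acts in B lineage cells. The control group was PTIP+/+ with the same Cre allele, so every mouse of both groups carried it. The study used 29 KO and 22 control mice, divided into 4 biological replicate samples per genotype. Each array therefore stands for a pool of mice, and n below counts pools. Values are log2 expression values after RMA, which gives the arrays 1 shared distribution, so a difference is relative to the other genes. A value of 1 on this scale is a doubling.

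Cytokine receptors of this group have no kinase of their own. Ligand binding brings chains together, the attached Janus kinases (JAKs) phosphorylate the receptor tails, and signal transducers (STATs) that dock there move to the nucleus and switch on genes for survival, growth and feedback. The common gamma chain serves the receptors for interleukin-2, interleukin-4, interleukin-7, interleukin-9, interleukin-15 and interleukin-21, and the common beta chain those for interleukin-3, interleukin-5 and GM-CSF. B-1a cells are a self-renewing B cell population of the body cavities that is known for spontaneous natural antibody and for its dependence on interleukin-5.

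To show the DNA from which the contrasted genes start, the 250 bases before the annotated start of 3 of them are given, 5′ to 3′, from RefSeq on GRCm38.p6. Il9r is shown because its level separated the genotypes by the widest margin of the 9 measured, and Il7r and Csf2rb2 because their windows hold the letters TTCNNNGAA, the core that STAT5 and other STATs recognise. Capitals mark that core, which reads the same on both strands. The windows lie at chr11:32200280-32200529 (minus strand) for Il9r, chr15:9529877-9530126 (minus strand) for Il7r and chr15:78305722-78305971 (minus strand) for Csf2rb2.
Il9r: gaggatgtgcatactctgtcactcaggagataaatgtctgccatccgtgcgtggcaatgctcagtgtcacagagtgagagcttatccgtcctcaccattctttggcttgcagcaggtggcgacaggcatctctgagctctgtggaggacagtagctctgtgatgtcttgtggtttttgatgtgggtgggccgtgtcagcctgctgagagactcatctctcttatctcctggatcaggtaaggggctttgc
Il7r: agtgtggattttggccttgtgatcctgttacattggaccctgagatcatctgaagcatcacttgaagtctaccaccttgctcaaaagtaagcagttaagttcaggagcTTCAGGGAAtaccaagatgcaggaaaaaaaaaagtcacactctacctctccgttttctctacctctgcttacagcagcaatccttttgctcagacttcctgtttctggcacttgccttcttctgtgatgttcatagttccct
Csf2rb2: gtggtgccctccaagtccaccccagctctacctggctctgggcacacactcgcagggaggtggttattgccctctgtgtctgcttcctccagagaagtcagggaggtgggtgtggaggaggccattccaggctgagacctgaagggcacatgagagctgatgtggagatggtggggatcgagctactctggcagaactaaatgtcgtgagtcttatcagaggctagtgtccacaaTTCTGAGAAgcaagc
The core began 142 bases before the start in Il7r and 15 bases before it in Csf2rb2. Of the 8 genes with a window here, these 2 held it and Il9r, Il5ra, Il2rg, Il4ra, Il21r and Il3ra did not; Csf2rb and Il10ra were not searched. Over all 32851 windows of this length, 7.02% held the core. A match of letters is a description of the sequence and not a binding site.

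The markers of the labelled cell type were present. A gene is described as called where limma gave an adjusted p under 0.05 over all genes. Counts at an unadjusted p under 0.05 stand beside the calls below. The share of all genes at that limit is not given, so nothing is read from these counts. Cd79b stood at 11.9 ± 0.04 in KO and 11.9 ± 0.05 in control, and Cd5, which separates B-1a from other B cells, at 7.48 ± 0.19 and 7.44 ± 0.15 (SD, n = 4 pools each); neither was called. Of the 8 measured B cell and B-1a markers 0 were called and 1 had an unadjusted p under 0.05. That was Spn (CD43), a surface marker of B-1 cells, at 6.19 ± 0.37 in KO and 6.71 ± 0.11 in control (difference -0.52, SE 0.16, limma, adjusted p = 0.121), with every KO pool below every control pool. Paxip1 itself was lower in KO by 2.67 on the log2 scale (difference -2.67, SE 0.22, limma, adjusted p = 9.96e-05; exact two-sided permutation p = 0.0286, the smallest that 4 against 4 allows). Markers of T and NK cells were not even across pools. In KO pools 1 to 4 the log2 values of 13 T cell markers averaged 7.19, 6.93, 5.25 and 5.76. The 4 control pools averaged 5.55, 5.69, 5.01 and 4.80. Spn in KO pools 1 to 4 was at 6.51, 6.48, 5.75 and 6.02, in the same pool order as these averages. In control the orders differed. The part of T cells in the Spn values was not tested. Of the 13 T cell markers, 12 had positive differences and limma called 0, with 8 at an unadjusted p under 0.05. The exception was Cd2, which mouse B cells also express. The summed level of the 13 on the linear scale ran from 2323 to 3875 in KO and from 2368 to 2617 in control. Cd2 is part of this sum and was the brightest of the 13 in every pool. Its log2 values were 10.606 to 10.934 in KO and 10.902 to 11.107 in control (difference -0.17). The sums therefore do not show the level of the other 12 alone. All 10 NK cell markers had positive differences and 2 were called higher, Klrb1c and Klrd1; their summed level ran from 198 to 683 in KO and from 108 to 209 in control. Of 10 macrophage markers 1 was called, Cd68, a lysosomal protein, which fell by 0.56 on the log2 scale (limma, adjusted p = 0.0275), and 2 had an unadjusted p under 0.05. Adgre1 (F4/80), the other, was at 4.27 ± 0.43 in KO and 5.04 ± 0.43 in control (limma, adjusted p = 0.122). The summed level of the 10 ran from 873 to 917 in KO and from 782 to 1721 in control. In bulk samples, fewer cells of a type and less RNA per cell cannot be told apart.

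Across the measured receptor genes the differences between KO and control ran from -0.49 to 2.75, with a median of 0.11; the median of all genes was 0.02. The differences of 6 genes were positive (Il9r, Il7r, Il21r, Il4ra, Il5ra and Il3ra) and those of 3 were negative (Il10ra, Csf2rb and Csf2rb2). Of all genes, 54.6% had a positive difference. Of the 9 genes 1 was called, Il9r, upward. Of all 22180 genes 3.59% were called, 1.49% higher and 2.10% lower in KO. The KO pools lay clear of the control pools for 5 of the 9, upward for Il9r, Il4ra and Il21r and downward for Csf2rb and Il10ra, against 10.5% of all genes. Nothing is read from these shares, because the genes were picked with this contrast known. Without KO pools 1 to 4 in turn, the total of 797 called genes fell to 539, 498, 758 and 535. Without control pools 1 to 4 in turn it fell to 578, 530, 497 and 479.

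**Figure D1:**
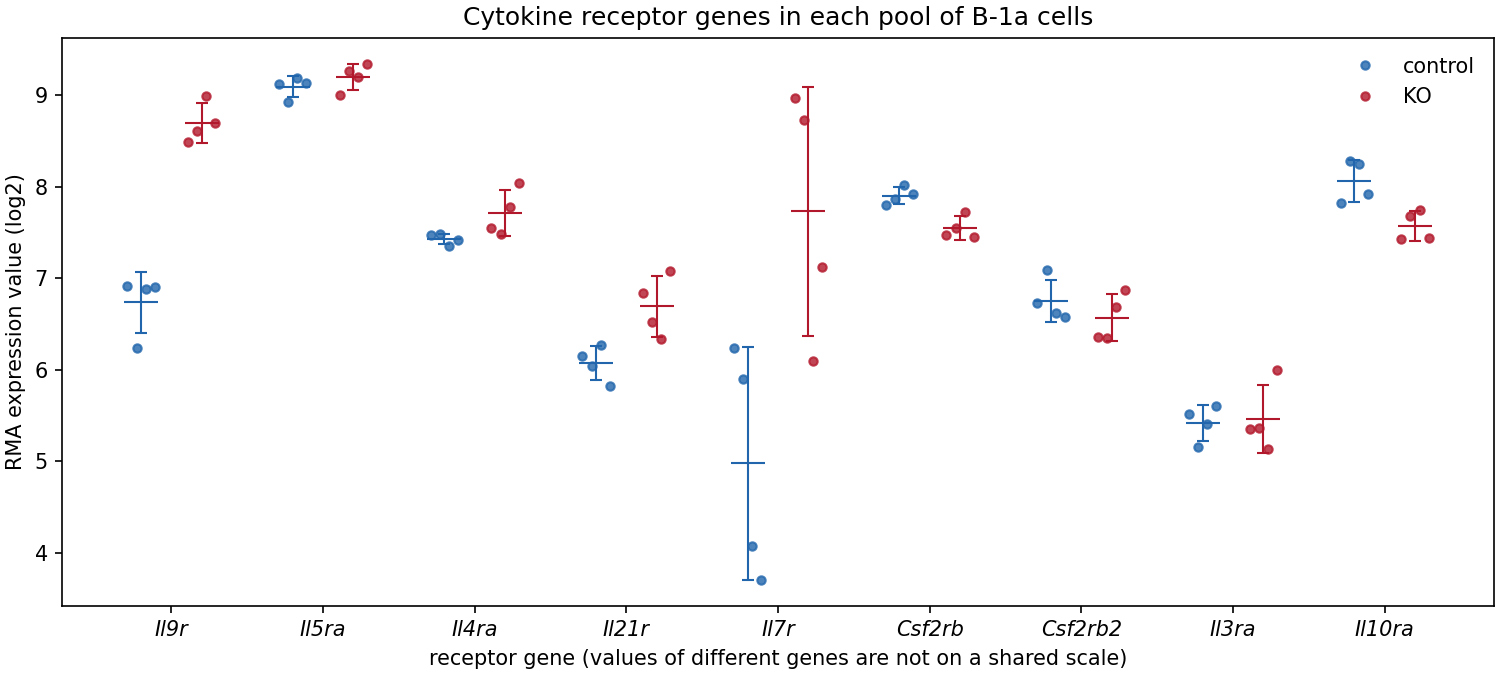
RMA expression (log2, vertical axis) of the 9 measured receptor genes in each control pool (blue) and KO pool (red); points are pools, bars the mean ± SD of 4 pools. Il9r lies at 8.49 or above in every KO pool and at 6.92 or below in every control pool, while Il5ra overlaps and Il7r spreads widely in both groups.

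Il9r encodes the chain that binds interleukin-9 and pairs with the common gamma chain. Its level was 8.49, 8.61, 8.99 and 8.70 in KO pools 1 to 4. In control pools 1 to 4 it was 6.92, 6.24, 6.88 and 6.91. Every KO pool thus lay more than 1 unit above every control pool, and the spread within a genotype was small beside the gap. The means were 8.70 ± 0.21 and 6.74 ± 0.33 (SD, n = 4 pools each), a difference of 1.96 (SE 0.16) or 3.89-fold. The lowest control value belonged to pool 2, which stood apart from the other 3. The difference lay between 1.79 and 2.03 when any 1 pool was left out. Within KO the order of the pools was the reverse of that of the T cell markers. KO pool 3, lowest in those markers, had the highest Il9r, and KO pool 1, highest in them, the lowest. Within control the order was not reversed throughout. Control pool 2, highest in those markers, had the lowest Il9r, but control pool 1, next highest in them, had the highest. With the T cell markers as a covariate the difference was 2.23 (SE 0.17). The part of T cells in the Il9r values was not tested. Mast cells, another cell of the peritoneal cavity that can carry the receptor, were followed by 10 markers. Their mean log2 value was at most 3.50 in KO and 3.83 in control, limma called 0 of them and 0 had an unadjusted p under 0.05. Their summed linear level was 103 to 142 in KO and 82.5 to 249.5 in control. The highest sum was in control pool 1, and within KO the highest was in pool 3, the pool with the highest Il9r. The mast cell protease Cpa3 was above the floor, at 4.504 to 5.48 in KO, 6.999 in control pool 1 and 3.75 to 4.14 in the other control pools. The part of mast cells in the Il9r values was not tested. Interleukin-9 itself (Il9) was near the floor of the array, at 2.37 ± 0.25 in KO and 2.27 ± 0.10 in control.

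Genes whose pools followed Il9r most closely were sought by the root mean square difference of the centred log2 values over the 8 arrays. The nearest was Anxa1 at 0.19, an annexin that binds membranes in the presence of calcium. It was followed by Bst1 at 0.24, an ectoenzyme of NAD metabolism, Dennd3 at 0.32, an activator of a Rab GTPase, Vpreb3 at 0.34, a B lineage gene related to the surrogate light chain, and Jchain at 0.34, the joining chain of polymeric immunoglobulin. Each of the 5 was higher in KO, by at least 1.49 (Jchain). Since Il9r separates the genotypes, a gene must do so to lie near it, and the distances say nothing further about the genes.

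**Figure D2:**
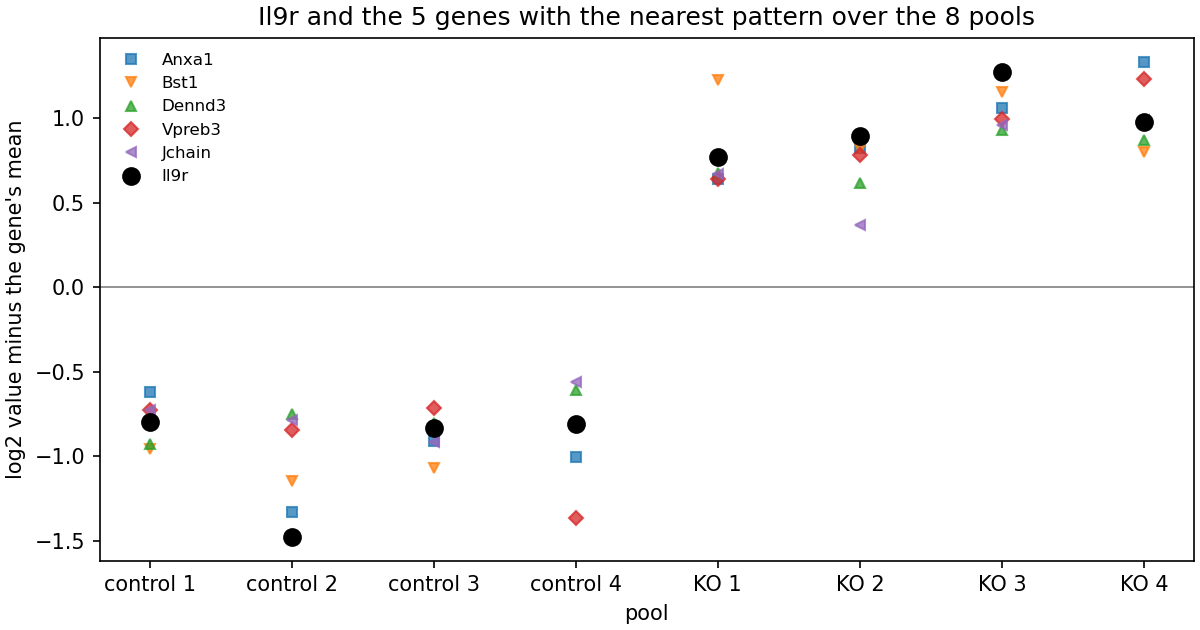
Log2 value minus the gene's own mean over the 8 pools (vertical axis) for Il9r (black) and the 5 genes with the smallest root mean square difference from it, by pool. All 6 genes lie below 0 in the control pools and above 0 in the KO pools; Anxa1, the nearest at 0.19, is low in control pool 2 like Il9r.

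Il7r encodes the interleukin-7 receptor chain that early B cells and resting T cells depend on. It had the largest difference of the group, 2.75 (SE 0.69), and by far the widest spread. KO pools 1 to 4 read 8.97, 8.73, 6.10 and 7.12, against 6.24, 5.90, 4.07 and 3.71 in the control pools. The groups overlapped, since KO pool 3 lay below control pool 1. The SDs, 1.36 in KO and 1.27 in control, were several times those of Il9r. The pools with high Il7r were those with high T cell markers: within KO the order of the 4 pools was the same for both measures, and in control pools 1 and 2 were high and pools 3 and 4 low in both. With the T cell markers as a covariate the difference was 1.01 (SE 0.34), and without KO pools 1 and 2 it was 1.63 (SE 0.68). With the replicate number as a block it was 2.75 (SE 0.19). The 5 genes nearest to Il7r by the same distance included Cd3e (0.38), Cd3d (0.47) and Thy1 (0.48), which are T cell genes. The other nearest genes were the T cell receptor segment Trav9d-3 (0.33) and the chemokine Ccl5 (0.36), made by T and NK cells. The T cell marker mean itself differed between genotypes, at 6.28 ± 0.93 in KO and 5.26 ± 0.42 in control. The covariate therefore cannot separate T cell content from genotype. The part of T cells in the Il7r values was not tested.

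**Figure D3:**
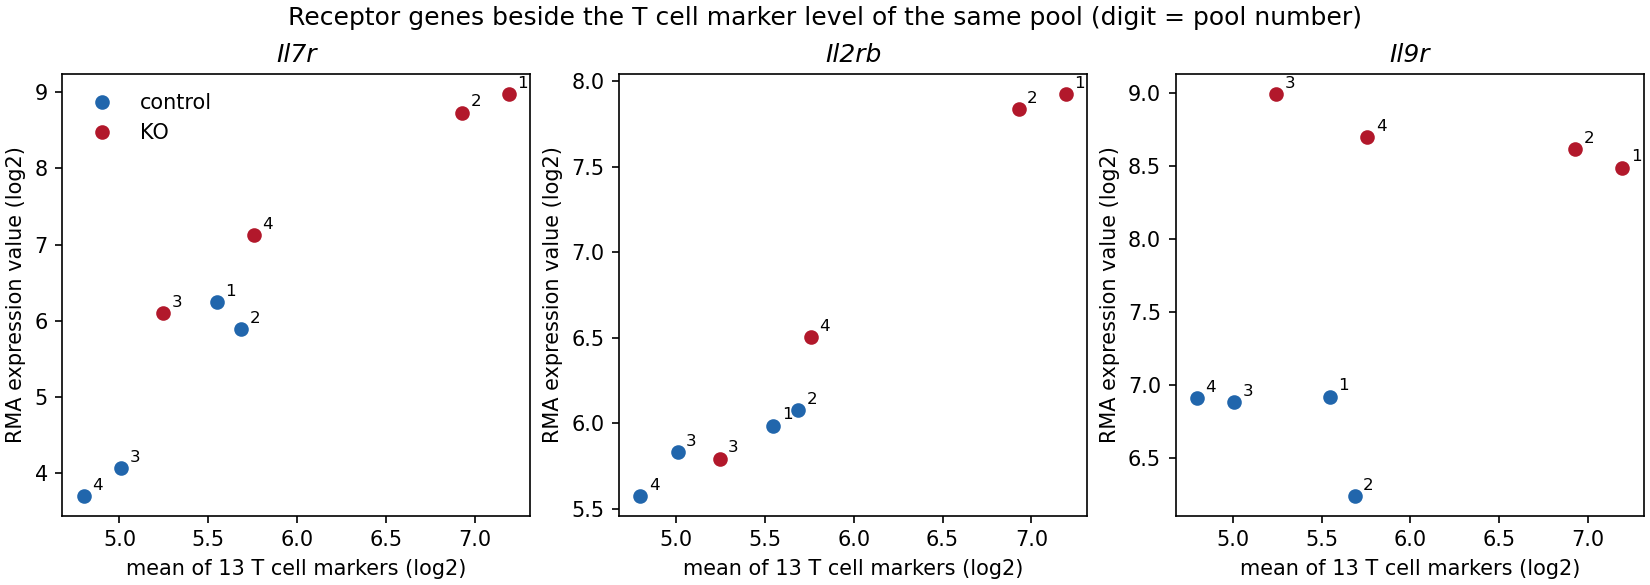
RMA expression (log2, vertical axes) of Il7r, Il2rb and Il9r against the mean log2 value of 13 T cell markers (horizontal axes) in the same pool; blue points are control pools, red points KO pools, and digits the pool numbers. Il7r and Il2rb are highest in KO pools 1 and 2, where the T cell markers are highest, whereas Il9r is highest in KO pool 3.

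The chains for interleukin-4 and interleukin-21 are encoded side by side, with 0 protein-coding genes between Il4ra and Il21r in the RefSeq order on chromosome 7. Il21r, whose ligand comes from follicular helper T cells and drives plasma cell differentiation, was at 6.84, 6.52, 6.34 and 7.08 in KO pools 1 to 4. In control pools 1 to 4 it was at 6.15, 6.04, 6.27 and 5.83. The groups came close, KO pool 3 against control pool 3, but did not overlap. The means differed by 0.62 (SE 0.16), with 6.69 ± 0.33 in KO and 6.07 ± 0.19 in control. Il4ra, the chain shared by the receptors for interleukin-4 and interleukin-13, was at 7.55, 7.49, 7.77 and 8.04 in KO and 7.47, 7.48, 7.35 and 7.41 in control. Here the KO pools only just cleared the control pools, KO pool 2 lying beside control pool 2, and KO pool 4 was the highest of all. The difference was 0.29 (SE 0.12). It was 0.18 without KO pool 4 and 0.48 without KO pools 1 and 2, the pools richest in T cell markers; with those markers as a covariate it was 0.44 (SE 0.14), and that of Il21r 0.54 (SE 0.21).

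The interleukin-5 receptor chain Il5ra differed little between the genotypes. It stood at 8.998, 9.26, 9.20 and 9.34 in KO and at 9.12, 8.92, 9.19 and 9.14 in control, and the groups overlapped. The means were 9.20 ± 0.15 and 9.09 ± 0.12, a difference of 0.11 (SE 0.10), which was under the SD of either group. It lay between 0.05 and 0.17 with any 1 pool left out, and with the T cell markers as a covariate it was 0.21 (SE 0.12). Eosinophils also carry this receptor. Of the 6 measured eosinophil markers 0 were called and 1 had an unadjusted p under 0.05. Their summed linear level was 85.8 to 111 in KO and 73.2 to 156 in control. Alox15 was the brightest of them, at 5.82 ± 0.27 in KO and 6.02 ± 0.73 in control. The part of eosinophils in the Il5ra values was not tested. By the distance used for Il9r, the genes nearest to Il5ra were Ell2 (0.04), an elongation factor of secretory B cells, Atxn7l3 (0.05), Cachd1 (0.05), Guk1 (0.05) and Clec12a (0.05). Since Il5ra varied little over the arrays, genes that vary little lie near it, and these distances say nothing further about the genes.

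Beta chains sit beside Il5ra and Il3ra in the membrane. Mice have a pair of such genes, Csf2rb, the chain shared by interleukin-3, interleukin-5 and GM-CSF, and Csf2rb2, a chain for interleukin-3 alone, with 0 protein-coding genes between them. Their sequences are close, and the probes may not separate them. Csf2rb was at 7.47, 7.55, 7.73 and 7.45 in KO and at 7.80, 7.87, 8.02 and 7.92 in control. All KO pools lay below all control pools, by a difference of means of -0.35 (SE 0.09), with 7.55 ± 0.13 in KO and 7.90 ± 0.09 in control. With the T cell markers as a covariate it was -0.26 (SE 0.11). Myeloid cells carry this chain too, and the macrophage marker Cd68 also lay lower in every KO pool, at 7.40 to 7.94 against 8.06 to 8.31. Of the 10 macrophage markers it was the only 1 called, and 4 had a positive difference. The part of macrophages in the Csf2rb values was not tested. Csf2rb2 was at 6.36, 6.35, 6.69 and 6.88 in KO and at 6.73, 7.09, 6.63 and 6.58 in control. These pools overlapped, the difference was -0.19 (SE 0.15), and it turned to 0.03 without KO pools 1 and 2. It was -0.12 without KO pool 1 and likewise without KO pool 2, -0.08 without control pool 2, -0.29 without KO pool 4 and -0.07 (SE 0.19) with the T cell markers as a covariate. Il3ra, the interleukin-3 binding chain, overlapped as well. It was at 5.36, 5.37 and 5.13 in KO pools 1 to 3 and highest in KO pool 4, and between 5.15 and 5.61 in control. Its difference of 0.04 (SE 0.17) became -0.14 without KO pool 4, -0.05 without control pool 2 and 0.13 (SE 0.22) with the T cell markers as a covariate.

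Il10ra, the interleukin-10 binding chain, through which B cells answer a cytokine that B-1a cells also secrete, had the most negative difference. It was at 7.43, 7.68, 7.75 and 7.44 in KO and at 7.82, 8.28, 8.25 and 7.92 in control. All KO pools lay below all control pools, the nearest being KO pool 3 and control pool 1. The means were 7.57 ± 0.17 and 8.07 ± 0.23, a difference of -0.49 (SE 0.13), and it stayed between -0.57 and -0.42 with any 1 pool left out. With the T cell markers as a covariate it was -0.45 (SE 0.17). Macrophages express Il10ra as well, and their marker Cd68 fell too (difference -0.56); Adgre1, not called, differed by -0.76 and the other 8 macrophage markers differed by -0.35 to 0.14. Their part in the Il10ra values was not tested.

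**Figure D4:**
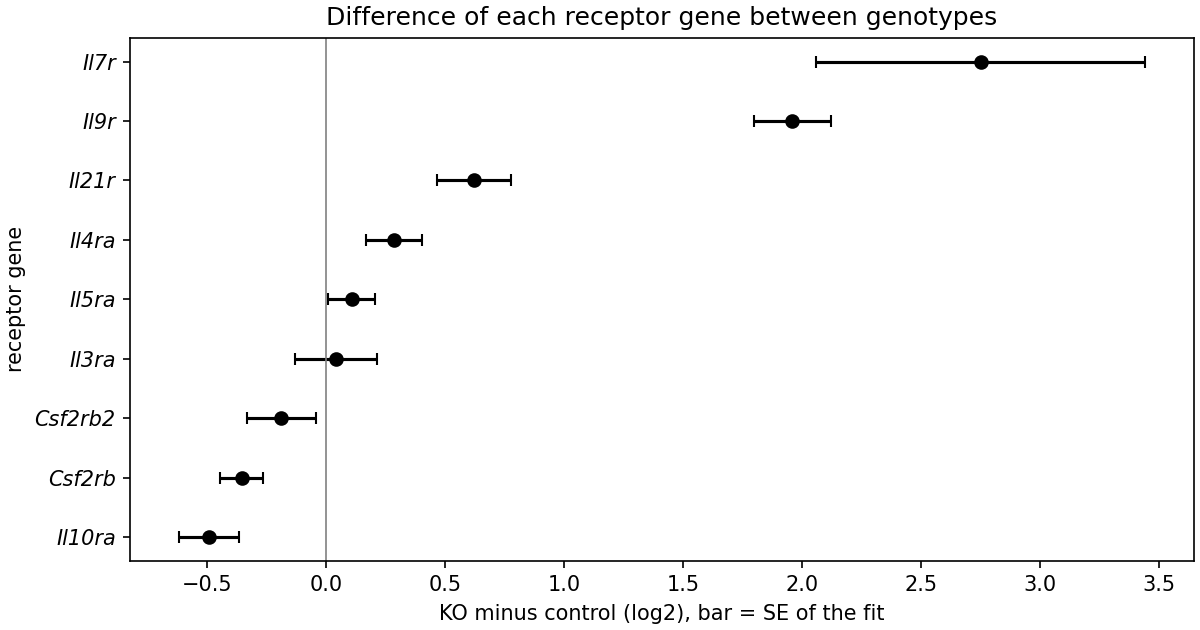
KO minus control difference (log2, horizontal axis) of each measured receptor gene, in order; points are differences of the means of 4 pools and bars the SE of the fit. They run from -0.49 for Il10ra to 2.75 for Il7r, whose SE of 0.69 is the widest; that of Il9r is 1.96 (SE 0.16).

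The remaining genes of the pathway were taken from 6 lists with 86 genes, 84 of them measured. Of the 84, 6 were called, 3 higher and 3 lower in KO, or 7.14% against 3.59% of all genes. The median difference was 0.01 against 0.02. With only genes above the median mean value kept, 1017 genes were called, 7 of them pathway genes. The 3.59% therefore depends on which genes are counted. The lists were drawn up with earlier results of these data known, so nothing is read from these shares. The 6 calls were Il2ra, Il2 and Stat4 upward and Gab2, Tyk2 and Stat2 downward. Between 4 and 6 of the 84 were called when any 1 pool was left out.

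Among 13 other receptor chains 1 was called. Il2ra (CD25), the alpha chain that raises the affinity for interleukin-2, was at 7.15, 7.31, 7.65 and 7.65 in KO and 6.59, 7.20, 6.30 and 6.67 in control. KO pool 1 lay below control pool 2, so the groups overlapped. Il2ra rose by 0.75 (SE 0.18, limma, adjusted p = 0.0457). Omission of KO pool 2, 3 or 4 or of control pool 1, 3 or 4 ended the call, which 10 of 18 alternatives ended in all (adjusted p 0.0105 to 0.210), while the difference stayed between 0.62 and 0.96. Il2rb, the chain shared by the receptors for interleukins 2 and 15 and abundant on NK and memory T cells, is named as chosen after its values were seen. It was at 7.92, 7.84, 5.79 and 6.51 in KO and 5.99, 6.08, 5.83 and 5.58 in control. The pools with high Il2rb were again KO pools 1 and 2. The difference was 1.15 (SE 0.40, limma, adjusted p = 0.181), called only without KO pool 3 (adjusted p = 0.0192). With the T cell markers as a covariate it was 0.12 (SE 0.16, limma, adjusted p = 0.818). The part of T and NK cells in the Il2rb values was not tested. The other 11, among them Il15ra, Csf2ra, Il10rb and the thymic stromal lymphopoietin chain Crlf2, had differences from -0.24 for Il15ra to 0.22 for Il13ra1 and were not called.

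Of 16 ligand genes 1 was called, and most read near the floor of the array. Il2, the T cell growth factor, was at 2.23, 2.30, 2.71 and 2.66 in KO and 1.91, 1.90, 2.07 and 2.04 in control. The groups did not overlap, yet both were dim. The rise was 0.49 (SE 0.12, limma, adjusted p = 0.0475), and it was not called without any 1 pool other than KO pool 1, in 10 of 17 alternatives in all (adjusted p 0.00470 to 0.166). Il10, the cytokine read by Il10ra, was at 2.95 ± 0.19 in KO and 2.98 ± 0.20 in control (limma, adjusted p = 0.948), and Il5 at 3.02 ± 0.25 and 2.76 ± 0.17 (limma, adjusted p = 0.375).

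Janus kinases and STATs held 3 of the 6 calls: of 9 measured genes 1 rose and 2 fell, with 6 at an unadjusted p under 0.05. Jak3 was not analysed here. Stat4, best known for answering interleukin-12, was at 8.70, 8.57, 8.15 and 8.40 in KO and at 7.79, 7.44, 7.53 and 7.33 in control. Within KO the order of the pools was that of the T cell markers, and within control it was not. The part of T cells in the Stat4 values was not tested. All KO pools lay above all control pools, and Stat4 rose by 0.93 (SE 0.13, limma, adjusted p = 0.00300). With the T cell markers as a covariate its difference was 0.68 (SE 0.13, limma, adjusted p = 0.0312); the call was lost without moderation of the variance (adjusted p 0.000558 to 0.0563 over 18 alternatives). Tyk2, the Janus kinase that serves interferon and interleukin-10 family receptors, was at 6.49, 6.66, 6.61 and 6.54 in KO and 7.13, 7.22, 7.06 and 7.10 in control. The KO pools were low and tightly grouped, and Tyk2 fell by 0.55 (SE 0.08, limma, adjusted p = 0.00317; up to 0.0379 over its alternatives). Stat2, which carries type I interferon signals, fell by 0.62 (SE 0.11, limma, adjusted p = 0.0100), with 6.26 ± 0.21 in KO and 6.88 ± 0.08 in control. It was not called with the T cell markers as a covariate (difference -0.56, adjusted p = 0.109), without KO pools 1 and 2 (adjusted p = 0.0832) and without moderation (adjusted p = 0.0726; 0.00467 to 0.109 over its alternatives). Stat5a, Stat5b and Stat6, the factors that the gamma and beta chain cytokines mainly use, had differences of -0.34, 0.04 and 0.02 and were not called, nor was Jak1 (0.22), the kinase bound by most of the ligand-binding chains.

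Gab2 had the largest difference of all 84. It is a docking protein that is phosphorylated after interleukin-3 and other cytokines bind and that recruits PI3 kinase and the phosphatase SHP2. Gab2 was at 4.22, 4.45, 4.45 and 3.99 in KO and at 6.57, 5.98, 5.56 and 5.86 in control. Every KO pool lay more than 1 unit below every control pool. Gab2 fell by 1.72 (SE 0.19, limma, adjusted p = 0.000591), 3.29-fold, and was called in each of its 18 alternatives (adjusted p up to 0.0372). Its relative Gab1 differed by 0.07 and was dim in both groups. The other 12 of the 13 adaptor and PI3 kinase genes were not called; of these Inpp5d, the inositol phosphatase SHIP, had the smallest p, with a difference of 0.31 (SE 0.08, limma, adjusted p = 0.0646).

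Neither the feedback inhibitors nor the target genes of the STATs held a call. Of 17 feedback genes limma called 0, with 5 at an unadjusted p under 0.05. The smallest p belonged to Ptpn11, which encodes SHP2 and acts as an activator as well as an inhibitor (0.36, SE 0.09, adjusted p = 0.0596), and to Socs5 (0.30, SE 0.10, adjusted p = 0.158). Cish, a direct STAT5 target named after its values were seen, was at 7.36 ± 0.08 in KO and 7.69 ± 0.24 in control, a difference of -0.33 (SE 0.12, limma, adjusted p = 0.186). Of 16 STAT target and survival genes limma called 0, with 4 at an unadjusted p under 0.05. Ccnd2, a cyclin of dividing B cells, differed by 0.27 (SE 0.08, limma, adjusted p = 0.111) and Nfil3, a survival factor induced by interleukin-3, by -0.29 (SE 0.09, limma, adjusted p = 0.131). The next genes were named after their values were seen. Bcl3 had the most negative difference of this list (-0.43, SE 0.14, limma, adjusted p = 0.141) and Fcer2a the most positive (0.35, SE 0.13, limma, adjusted p = 0.190). The survival genes Bcl2, Mcl1 and Pim1 differed by -0.18, -0.15 and -0.01 and were not called. With an intensity trend and a robust prior 10 of the 84 pathway genes were called, and without moderation of the variance 2.

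**Figure D5:**
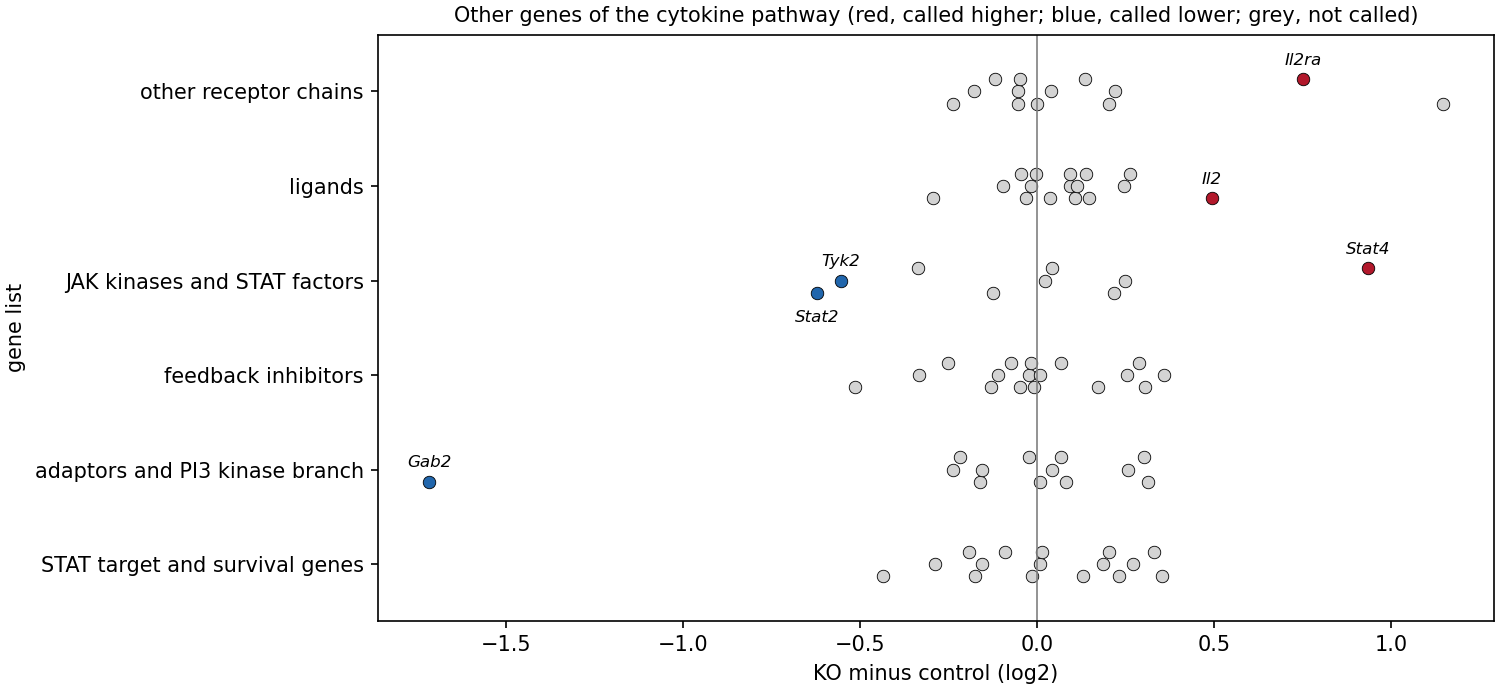
KO minus control difference (log2, horizontal axis) of the 84 measured pathway genes in 6 lists (rows; vertical scatter within a row has no meaning); red points were called higher, blue lower and grey not called by limma. The 6 called genes are named, from Gab2 at -1.72 to Stat4 at 0.93; the grey point at 1.15 is Il2rb.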

How the data were processed

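RNA of sorted B-1a cells from 4 KO and 4 control pools was measured on Affymetrix arrays, 1 per pool. The authors deposited log2 values of 41345 probe sets, made with RMA and R 3.2.2 per the submitters' processing notes; package and annotation are not stated there. Array medians lay between 3.68 and 3.74. RMA flattens values near the background, so folds of dim genes are understated, and having 8 arrays limits the precision. Of the probe sets, 23521 had 1 symbol; with 1 per gene (the highest mean), 22180 genes were tested with limma 3.58.1 in R 4.3.3 (lmFit, eBayes, Benjamini-Hochberg over all genes). The fit was tested on simulated data. The receptor genes, lists and alternatives were chosen with earlier results of these data known. Named were the receptor genes, Paxip1, called list members, otherwise the 2 with the smallest p, and the 5 genes nearest to Il9r, Il5ra and Il7r; others were chosen after their values were seen. Alternatives changed the probe set rule, low-value filter, scaling, variance prior, array weights, replicate block and T cell covariate (the mean of those markers), and left out each pool; omission of KO pools 1 and 2 was added later.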

Additional observations from a re-analysis of the deposited data

Results flagged for a closer look

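In control pool 2 Il9r read 6.24 on the log2 scale, apart from the other control pools, which lay between 6.88 and 6.92; its gap to the nearest pool was 0.948 of the group's range, above Dixon's 95% limit for 4 values. Of 60 groups of 4 pools checked, 1 passed this limit, and chance gives about 1 in 20. Without that pool the Il9r difference was 1.79 (SE 0.12).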

How the results depend on the processing

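Over 18 alternatives the Il9r difference lay between 1.79 and 2.23 and never moved by more than the SD between pools; with any 1 pool left out it ran from 1.79 to 2.03. The number of receptor genes with a positive difference was 5 to 7 (5 to 6 with any 1 pool left out), the sign of Il3ra and of Csf2rb2 being the ones that turned. Paxip1 stayed called, at -2.95 to -2.40 (-2.81 to -2.40 with any 1 pool left out). The count of called genes, 797, was 303 without moderation of the variance, 338 with the T cell markers as a covariate, 320 without KO pools 1 and 2 (added after the values were seen), and 479 to 758 with any 1 pool left out. The count of called pathway genes, 6, was 10 with an intensity trend and robust prior, 2 without moderation, and 4 to 6 with any 1 pool left out; the cause was not tested. With the replicate number as a block (replicate block) 666 genes and 5 pathway genes were called, and Il2ra lost its call (adjusted p = 0.0752 in limma). The labels tie same-numbered pools by the number alone. Their deviations correlated at 0.0363 to 0.107, 1 of 4 pairs was above 0.1, and 2 of the 4 KO pools correlated best with their own number. With the block the SE of Il7r fell from 0.69 to 0.19 and that of Il10ra from 0.13 to 0.09, while that of Il21r rose from 0.16 to 0.17. Whether the numbers mark a pairing was not tested. Most ligand genes lie near the array floor, where signal over background limits what can be seen.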
